A study of Mus musculus with 12 samples.

Results

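Small nucleolar RNA (snoRNA) and small Cajal body RNA (scaRNA) genes were examined in mouse embryonic stem (mES) cells in which the amount of BRG1, the ATPase of the BAF chromatin remodelling complexes, was set by the degrader dTAG13. The genes were chosen by symbol, as Snord, Snora or Scarna followed by a digit, with at least 10 counts summed over the 12 libraries. Of 24421 genes in the count table, 119 had such a symbol and 105 passed, 64 with C/D box symbols (Snord), 32 with H/ACA box symbols (Snora) and 9 with Cajal body symbols (Scarna). All 105 were among the 11378 genes tested, which had 1 RPKM or more on average (RPKM, read pairs scaled by gene length and library size). The cells were of strain B6, were grown in 2i+LIF and, in every group including the controls, carried a Brg1 dTag knock-in. The knock-in adds a tag through which dTAG13 brings about breakdown of the BRG1 protein, and such lines came from colonies of single cells. How many clones the libraries came from is not given in the sources used here. The groups were the control (0 nM) and 0.3, 1, 3, 10 and 100 nM dTAG13 for 24 h, with 2 libraries each. Each library was total RNA made with a stranded kit and sequenced as paired reads of 75 bases. The p-values below rest on the spread between the 2 libraries of each group, pooled over the groups and in part over genes. In the trend over the doses they rest on the spread of the 12 libraries around a fitted line.

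C/D box snoRNAs guide 2′-O-methylation, and H/ACA box snoRNAs guide pseudouridylation, mostly of ribosomal RNA in the nucleolus. scaRNAs carry the same boxes, sit in Cajal bodies and guide the same changes in spliceosomal RNAs. In mammals most of these RNAs are not transcribed from promoters of their own but are cut out of the introns of host genes, many of them genes for ribosomal proteins and translation factors, and are stable because a set of core proteins binds them.

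The count table placed 97 of the 105 genes whole inside another gene on the same strand. A host was given only to genes counted at a single locus, so Snord53 and Snord58b, counted at several, had none by rule. The 97 genes lay in 73 host genes, of which 18 hosts held 2 or more and 42 snoRNAs between them. Ribosomal protein genes held 30 and genes with Snhg or similar noncoding symbols held 12. Genes that share a host are not independent. The counted windows had a median length of 67 bases for C/D box genes, 119 for H/ACA box genes and 118 for Cajal body genes, and ranged from 28 to 275 bases, so that many were shorter than 1 read. In 91 of 105 genes the counted window did not cover the whole GENCODE M21 gene of the same symbol (same build, GRCm38/mm10). In 7 it covered under 50% of it. The counts of Snord53 and Snord58b sum 3 and 2 loci, with 108 and 109 bases in all against 78 and 66 in GENCODE. For Snord118 (U8), an RNA needed for cleavage of the large-subunit rRNA precursor, the counted window of 44 bases at chr19:7478518-7478561 did not overlap the GENCODE gene at all, and its 22 counts in all are not read as U8. Of the 14 symbols under the minimum, 13 had 0 counts, and 12 overlapped an exon of another gene in the table, against 6 of the 105 kept genes, which overlapped miRNA exons. Read pairs on several genes were not counted, and the part of this in the 0 counts was not tested. Strand was not used in counting, and read pairs from the unspliced host transcript fall in the same windows as the mature RNA, so the counts do not tell one from the other.

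The sequences below are those of the genes called in the trend over the doses or, without a minimum fold, at 100 nM, followed by the 3 with the largest spread between replicates among genes averaging 50 counts or more. That of Scarna17, called at 10 nM, is not shown. They were read from GENCODE M21 transcripts (GRCm38/mm10), 5′ to 3′. Capitals mark the C box core TGATGA where it starts within the first 30 bases, the last CTGA (D box core) within the final 15 bases, or ACA exactly 3 bases before the 3′ end. For Scarna2 and Scarna10, whose counted windows covered 14.7% and 21.8% of the GENCODE gene, only the counted window is shown, without capitals, since the boxes were searched in the full gene, where both hold the D box core and Scarna10 also the C box core.
Scarna2: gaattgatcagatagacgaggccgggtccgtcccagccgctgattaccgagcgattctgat
Scarna10: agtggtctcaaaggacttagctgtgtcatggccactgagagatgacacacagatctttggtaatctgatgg
Snora81: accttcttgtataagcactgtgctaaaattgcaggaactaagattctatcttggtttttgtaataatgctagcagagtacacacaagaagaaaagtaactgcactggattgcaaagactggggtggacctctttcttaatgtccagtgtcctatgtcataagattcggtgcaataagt
Snora41: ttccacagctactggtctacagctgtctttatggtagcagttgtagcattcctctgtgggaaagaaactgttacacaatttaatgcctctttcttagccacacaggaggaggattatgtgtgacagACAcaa
Snora5c: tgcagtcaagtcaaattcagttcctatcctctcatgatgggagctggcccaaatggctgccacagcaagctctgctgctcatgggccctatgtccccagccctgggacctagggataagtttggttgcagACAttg
Snord15a: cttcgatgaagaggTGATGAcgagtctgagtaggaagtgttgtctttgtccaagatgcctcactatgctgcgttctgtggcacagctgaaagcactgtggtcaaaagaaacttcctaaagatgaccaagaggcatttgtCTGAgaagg
Snord15b: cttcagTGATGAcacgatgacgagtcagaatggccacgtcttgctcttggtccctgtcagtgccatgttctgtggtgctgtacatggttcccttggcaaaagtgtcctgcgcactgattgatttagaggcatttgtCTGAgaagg
Snord17: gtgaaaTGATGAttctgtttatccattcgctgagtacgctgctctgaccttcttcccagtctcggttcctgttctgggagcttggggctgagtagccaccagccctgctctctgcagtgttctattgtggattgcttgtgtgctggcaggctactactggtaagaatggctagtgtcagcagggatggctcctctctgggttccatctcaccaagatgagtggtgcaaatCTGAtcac
Snord67: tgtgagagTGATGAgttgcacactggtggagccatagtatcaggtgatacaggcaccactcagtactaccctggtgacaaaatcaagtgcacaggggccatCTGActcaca
Snord82: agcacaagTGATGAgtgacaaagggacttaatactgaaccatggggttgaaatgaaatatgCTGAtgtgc
Snord42a: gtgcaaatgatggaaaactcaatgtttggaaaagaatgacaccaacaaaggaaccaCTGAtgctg
Snord1c: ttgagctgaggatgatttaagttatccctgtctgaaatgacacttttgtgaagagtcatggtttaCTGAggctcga

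In that order they lie at chr3:108554342-108554402 (minus strand, in no host), chr6:125186361-125186431 (minus, in an intron of Ncapd2, as the others named here are of theirs), chr16:23110756-23110933 (plus, Eif4a2), chr1:63179004-63179135 (plus, Eef1b2), chr11:6620319-6620454 (minus, Tbrg4), chr7:99482785-99482932 and chr7:99479563-99479707 (both minus, Rps3), chr2:144265979-144266216 (minus, Snx5), chr2:91596070-91596180 (plus, Ckap5), chr1:86356261-86356330 (minus, Ncl), chr11:78181299-78181363 (minus, Rpl23a) and chr11:116672506-116672581 (plus, 1810032O08Rik). Over the full GENCODE sequences, the C box core was found in 39 of the 64 C/D box genes (60.9%) and 0 of the 32 H/ACA box genes, and in 0.590% of 2202 miRNA hairpins read in the same window. The D box core was found in 57 of 64 C/D box genes (89.1%), 2 of 32 H/ACA box genes (6.25%) and 6.18% of miRNA hairpins. ACA in its position was found in 26 of 32 H/ACA box genes (81.25%), 0 of 64 C/D box genes and 3.27% of miRNA hairpins. These are exact matches on the transcript strand only, and Snora81, Snord1c and Snord42a are among the genes without one of them. Of the 105 counted windows, 16 held a stretch of 40 bases also found in another snoRNA or scaRNA gene. All 37 such stretches of Snord1c, 56.0% of those of Snora81 and 52.7% of those of Snora41 were shared. Pairs mapping to several places were not counted, so pairs from these stretches may be missing from their counts.

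Levels differed widely among these genes. The mean count over the 12 libraries ranged from 1.83 (Snord118) to 5670 (Snord22), with a median of 209, and the 10 highest genes held 51.9% of all counts on the 105. Per length, Snord22, which in frog oocytes is needed to make 18S rRNA, stood at 7708 RPKM on average, Snora21 at 4772, Snora81 at 4369, Snord15a at 3772, Snord15b at 3684 and Snora23 at 1875 RPKM. Scarna2, a guide for the U2 spliceosomal RNA, was the highest of the Cajal body genes by count and stood at 1456 RPKM, ahead of Scarna10 with 543, Scarna6 with 267 and Scarna13 with 242. Just inside the minimum of 10 counts was Snord118, with 22, and just outside was Snord123, with 6.

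The total count per library ranged from 4663484 to 6375582, and the 105 genes took 37405 to 71895 of these, or 0.794% to 1.23%. BRG1 was lowered at the protein level, so Smarca4, its gene, is no check of the labels, and it stood between 63.5 and 71.3 RPKM. Markers of mES cells (Pou5f1, Nanog and 5 others) summed to 1253 to 1401 RPKM per library, and 14 markers of other cells to 19.1 to 33.2 RPKM. At 100 nM 2 of the 4 tested markers of other cells, Eomes and Cdx2, were higher than in the controls and 2 mES markers were higher and 3 lower (adjusted p under 0.05, edgeR's quasi-likelihood test), and their part in the results below was not tested. In bulk RNA, fewer cells of one kind and less RNA per cell cannot be told apart.

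The share of counts on these genes varied as much between the 2 libraries of a dose as between doses. The replicates held 1.07% and 0.794% without dTAG13, 0.837% and 0.835% (0.3 nM), 0.873% and 1.03% (1 nM), 0.802% and 1.23% (3 nM), 1.16% and 0.843% (10 nM) and 1.01% and 1.16% (100 nM). The ranges of 0 nM and 100 nM overlapped. At most doses the difference between replicates ran through nearly the whole set. The higher CPM (counts scaled to library size) was in replicate 1 for 96 of the 105 genes at 0 nM and 102 at 10 nM. It was in replicate 2 for 95 at 1 nM, 100 at 3 nM and 87 at 100 nM. At 0.3 nM it was less one-sided, with 67 higher in replicate 1 and 38 in replicate 2. The gap was smallest in windows of over 110 bases at each dose. The median deviation from the mean of the 12 libraries differed between the 0 nM replicates by 1.11 (log2) for windows of up to 75 bases, 1.00 for 76 to 110 bases and 0.41 for longer ones, among the 79 genes that averaged 50 counts or more. Over all tested genes this deviation stayed within 0.012 of 0 in every library, which the scaling of CPM brings about for the bulk of genes. In 5 of the 6 pairs the library with the larger share of counts on the 105 genes also had the larger share on the rRNA precursor gene Rn45s, the exception being 0.3 nM, whose shares on the 105 were nearly equal. Rn45s took 10.5% to 19.4% of all counts, and its part in the difference was not tested.

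**Figure D1:**
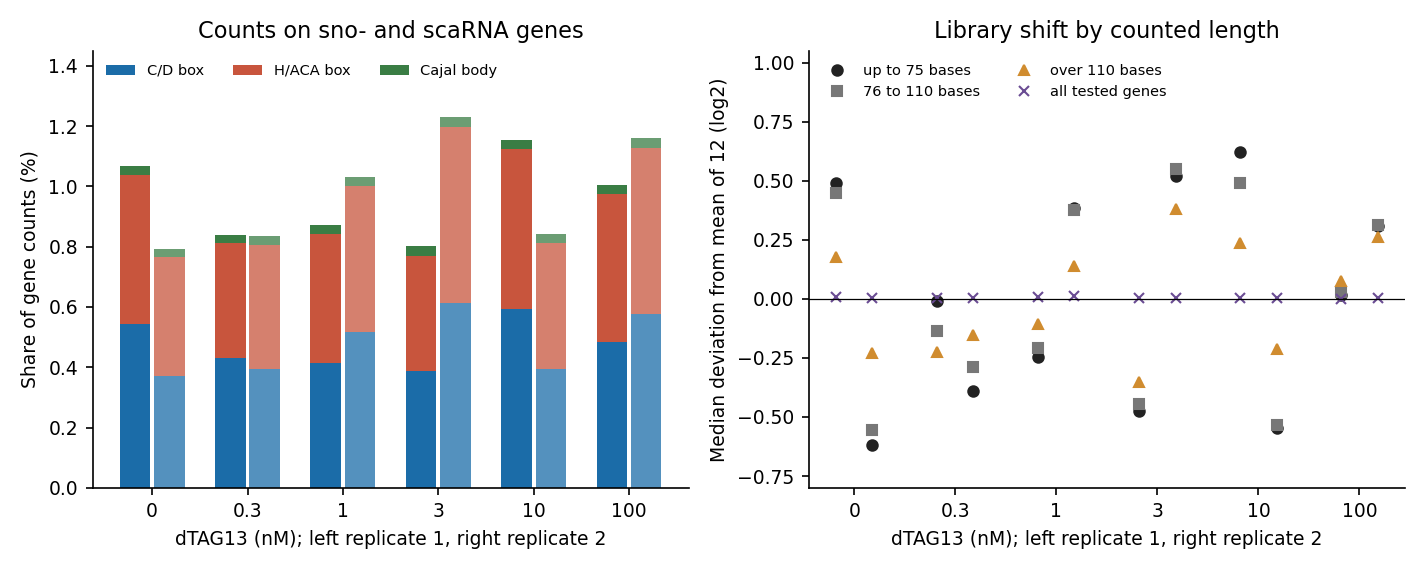
Left, share of all gene counts (%, stacked bars by class) in each of the 12 libraries by dTAG13 dose (nM). Right, median deviation of log2 CPM from the mean of the 12 libraries, by counted length, for genes with at least 50 counts on average. At 0, 3 and 10 nM the 2 replicates sit on opposite sides of 0, with the windows of over 110 bases nearest to it. All tested genes stay at 0, where the scaling of CPM places the bulk of genes.

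The spread between replicates was large for a count of this size. The standard deviation (SD) of log2 CPM within doses had a median of 0.54 over the 105 genes, against 0.14 over all tested genes. Among genes with 100 to under 1000 counts on average it was 0.58 for 53 snoRNA and scaRNA genes and 0.11 for all tested genes, where counting alone gives 0.07 for the former. Among genes with 1000 or more counts it was 0.24 and 0.06. It followed length more closely than count. In windows of up to 75 bases the median SD was 0.65 (31 genes), at 76 to 110 bases 0.55 (18 genes) and over 110 bases 0.30 (30 genes). Class differed too, with 0.63 for C/D box (45 genes), 0.36 for H/ACA box (28 genes) and 0.15 for Cajal body genes (6 genes). C/D box windows were the shortest, so length and class go together, and their parts were not tested. Snora61, with a window of 62 bases, had an SD of 0.29. As a description across genes, which share the same libraries, Spearman's rho of the SD was -0.69 with counted length and -0.38 with mean count (79 genes).

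The extremes show the same. Snord82, a C/D box guide for 18S rRNA in an intron of Ncl, had the largest SD among genes averaging 50 counts or more, 0.86, and stood at 73.0 and 28.5 CPM without dTAG13, and then at 56.6 and 27.0 (0.3 nM), 32.3 and 61.8 (1 nM), 29.6 and 62.4 (3 nM), 80.8 and 21.8 (10 nM) and 36.3 and 53.0 (100 nM). At every dose its replicates lay farther apart than any of its dose means did from each other. Snord42a followed with an SD of 0.82 and stood at 17.7 and 5.70 CPM without dTAG13, and then at 9.70 and 7.37 (0.3 nM), 8.92 and 11.5 (1 nM), 6.09 and 13.9 (3 nM), 18.8 and 4.84 (10 nM) and 10.4 and 12.4 (100 nM). Snord1c had an SD of 0.80. The genes with fewer counts but larger SDs were Snord90 (0.96), Snord118 (0.93) and Snord93 (0.91). With 50 counts or more, the smallest SDs were those of Scarna2 (0.13), Scarna6 (0.13) and Snord17 (0.14). The window of Scarna2 is short, at 61 bases, but lies within a GENCODE gene of 414 bases, and that of Scarna10, with an SD of 0.15, lies in a gene of 325 bases.

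**Figure D2:**
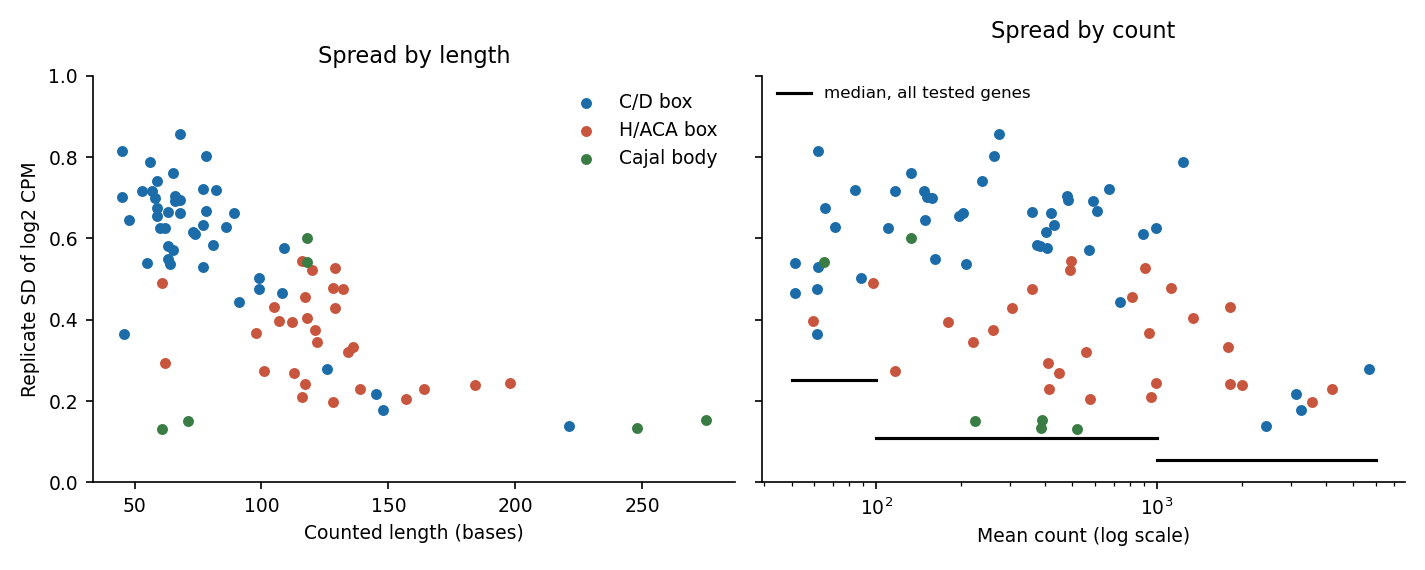
Replicate SD of log2 CPM for the 79 genes averaging 50 counts or more, against counted length in bases (left) and mean count on a log scale (right), coloured by class. Black lines on the right give the median of all tested genes in each count class. All points lie above the lines, and the spread is smallest in the longest windows and in Scarna2 and Scarna10.

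With this spread, few genes differed from the control at a single dose. All doses share the same pair of control libraries. The test was edgeR's quasi-likelihood test, with p-values adjusted by Benjamini-Hochberg over all 11378 genes, and a gene was called at an adjusted p under 0.05 and a change of over 1.5-fold. At the lowest 3 doses 0 of the 105 were called, by this test, by edgeR's likelihood ratio test and by DESeq2. Over all tested genes the quasi-likelihood test called 0% higher and 0.0176% lower (0.3 nM), 0.185% and 0.729% (1 nM), and 1.52% and 2.38% (3 nM). Dropping the minimum fold still gave 0 of the 105, against 0% and 0.0703% of all tested genes (0.3 nM), 0.773% and 1.52% (1 nM), and 4.15% and 5.25% (3 nM). Leaving out a library changed this for 3 nM alone, where 2 genes passed without 0 nM replicate 1, 3 without 3 nM replicate 1 and 1 without 3 nM replicate 2. At 10 nM 1 gene, Scarna17, was called higher and 0 lower, where 3.01% and 4.92% of all tested genes were, and without the minimum fold 2 rose and 0 fell, against 7.87% and 10.1%. At 100 nM 0 were called in either direction by edgeR's quasi-likelihood test, against 4.37% higher and 6.83% lower of all tested genes, 2 by the likelihood ratio test and 0 by DESeq2. Without the minimum fold, 3 genes (2.86%) rose and 1 (0.952%) fell there, against 10.1% and 13.3%.

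At an unadjusted p under 0.05, 1 of the 105 was higher and 7 lower with 0.3 nM, where 3.17% and 4.38% of all tested genes were. With 1 nM it was 1 higher (Scarna2) and 0 lower, against 6.03% and 7.47%, and with 3 nM 3 higher and 0 lower, against 10.1% and 11.6%. With 10 nM 3 were higher and 1 lower, against 13.7% and 15.2%, and with 100 nM 8 were higher and 1 lower, against 15.9% and 18.6%. The share of the 105 under this limit was below that of all tested genes in all of these except the lower genes with 0.3 nM, where the 7 (6.67%) were Scarna6, Scarna10, Snora15, Snora21, Snora64, Snora78 and Snord17. The replicates were set against the controls in CPM as well. Both 0.3 nM libraries lay above both controls for 2 genes and below for 11, where 18.5% and 19.7% of all tested genes did so. The counts were 4 and 3 with 1 nM (22.2% and 22.6%), 2 and 0 with 3 nM (24.3% and 25.4%), 7 and 3 with 10 nM (27.4% and 27.4%), and 14 and 1 with 100 nM (30.5% and 31.2%).

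The median log2 fold change of all tested genes was within 0.005 of 0 at each dose, where the scaling places the bulk of genes. That of the 105 genes against 0 nM was -0.16 (0.3 nM), 0.07 (1 nM), 0.11 (3 nM), 0.04 (10 nM) and 0.15 (100 nM). At 100 nM 86 values were positive and 19 negative, with medians of 0.14 for C/D box, 0.19 for H/ACA box and 0.15 for Cajal body genes. These medians rest on single libraries. That at 100 nM was 0.65 without 0 nM replicate 1, -0.17 without 0 nM replicate 2 and 0.02 without 100 nM replicate 2. The 95% interval of the change at 100 nM lay within 1.5-fold either way for 18 of the 105 genes and within 2-fold for 74. Of 11378 tested genes, 6109 and 8815 did so. For most of the 105 a change of 1.5-fold was not detectable at this spread and cannot be told from none. These intervals lean in part on the smaller spread of all tested genes. That of Snord82 was -1.04 to 0.68 and that of Snord22 -0.15 to 0.45, with replicate SDs of 0.86 and 0.28. With 2 libraries against 2, an SE from the gene's own SD equals that SD, so for these genes such intervals would be wider. The call counts were as dependent, since 7 genes passed at 100 nM when 0 nM replicate 1, the control library rich in snoRNA counts, was left out, and 1 when either 3 nM library was.

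**Figure D3:**
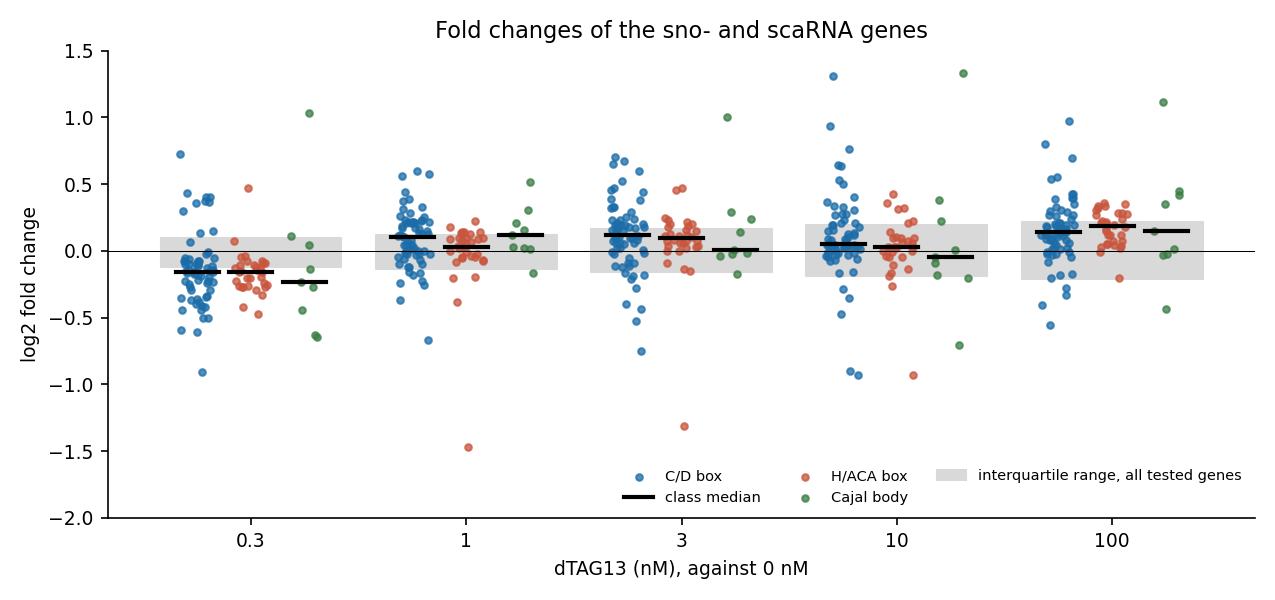
log2 fold change of each of the 105 genes at each dTAG13 dose against 0 nM, by class, with class medians as black bars and the interquartile range of all tested genes in grey. Single genes reach -1.47 and 1.34, while the class medians stay between -0.23 and 0.19 at all doses.

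Of the genes called at 100 nM without a minimum fold, Scarna2 had the smallest adjusted p. Scarna2 stood at 73.5 and 77.3 CPM without dTAG13, and then at 71.4 and 92.0 (0.3 nM), 91.2 and 83.6 (1 nM), 94.2 and 84.3 (3 nM), 95.6 and 101 (10 nM) and 106 and 96.0 (100 nM). Both libraries were above both controls at every dose from 1 nM on. Its log2 fold change was 0.38 ± 0.10 (SE) with 10 nM (adjusted p = 0.00817, edgeR's quasi-likelihood test) and 0.42 ± 0.10 with 100 nM (adjusted p = 0.00268, same edgeR test), the latter with a 95% interval of 0.21 to 0.62. The rise lost its call at 10 nM without 0 nM replicate 1 (adjusted p = 0.0866 by edgeR) or 10 nM replicate 2 (0.0630), and at 100 nM without 100 nM replicate 1 (0.0629).

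Scarna10, also known as U85, a guide for the U5 spliceosomal RNA, was the one gene of the 105 to fall with 100 nM, on the test without a minimum fold. It stood at 42.1 and 44.9 CPM without dTAG13, and then at 32.8 and 39.3 (0.3 nM), 36.7 and 40.9 (1 nM), 47.9 and 37.3 (3 nM), 41.0 and 35.8 (10 nM) and 31.3 and 33.0 (100 nM). The 100 nM libraries lay below both controls, and 0.3 nM replicate 1 lay at their level. The log2 fold change was -0.44 ± 0.13 (SE, adjusted p = 0.0136, edgeR's quasi-likelihood test). The call was lost without 0 nM replicate 2, 100 nM replicate 1 or 100 nM replicate 2 (adjusted p = 0.107, 0.109 and 0.0531 by edgeR) and by DESeq2 (0.0547). Ncapd2, its host and a condensin subunit, had a log2 fold change of 0.07 ± 0.06 (SE, adjusted p = 0.468, edgeR).

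Snora81 and Snord15b rose with 100 nM on the same test. Snora81, a guide for 28S rRNA, stood at 719 and 601 CPM without dTAG13, and then at 591 and 649 (0.3 nM), 658 and 758 (1 nM), 563 and 862 (3 nM), 848 and 679 (10 nM) and 792 and 879.6 (100 nM). Its log2 fold change at the top dose was 0.34 ± 0.12 (SE, adjusted p = 0.0458, edgeR's quasi-likelihood test). Snord15b, also a guide for 28S rRNA, stood at 497 and 496 CPM without dTAG13, and then at 424 and 504 (0.3 nM), 508 and 563 (1 nM), 489 and 634 (3 nM), 621 and 427 (10 nM) and 577 and 671 (100 nM), with a change of 0.33 ± 0.12 at the top dose (SE, adjusted p = 0.0442, edgeR). For both, the 100 nM libraries were above the controls, and the replicates of 3 and 10 nM lay on both sides of at least one control. Both calls were near the threshold, and DESeq2 gave adjusted p of 0.341 and 0.331. By edgeR, Snora81 lost its call without 0 nM replicate 2 (adjusted p = 0.374), 0.3 nM replicate 1 (0.0561), 0.3 nM replicate 2 (0.0549), 100 nM replicate 1 (0.0846) or 100 nM replicate 2 (0.304). Snord15b lost it, also by edgeR, without 0 nM replicate 1 (adjusted p = 0.142), 0 nM replicate 2 (0.158), 1 nM replicate 1 (0.0508), 100 nM replicate 1 (0.0518) or 100 nM replicate 2 (0.376).

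Scarna17, the 1 gene called at 10 nM with the minimum fold, has few counts. It had 17 and 6 counts without dTAG13, and then 25 and 20 (0.3 nM), 10 and 23 (1 nM), 15 and 26 (3 nM), 33 and 25 (10 nM) and 26 and 25 (100 nM). The lowest library of all was 0 nM replicate 2. Its log2 fold change at 10 nM was 1.34 ± 0.44 (SE, adjusted p = 0.0364, edgeR's quasi-likelihood test), and without 0 nM replicate 2 it was 0.73 (adjusted p = 0.384, edgeR). The call was also lost without 10 nM replicate 1 (adjusted p = 0.183), 10 nM replicate 2 (0.0618) or, just over the threshold, 100 nM replicate 1, and by DESeq2 (0.0967). Of the 40-base stretches in its counted window, 73.9% were shared with another snoRNA or scaRNA gene.

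A fit over all 12 libraries, with the doses in order as steps 0 to 5, gave more calls. Of the 105, 8 rose with the dose order at an adjusted p under 0.05 by edgeR's quasi-likelihood test (7.62%), and 0 fell, where 13.6% of all tested genes rose and 15.7% fell. The 8 were Scarna2, Snora81, Snora41, Snora5c, Snord15a, Snord15b, Snord17 and Snord67, and their counted windows were 98 bases or longer except that of Scarna2. At an unadjusted p under 0.05, 13 were higher and 0 lower, against 19.3% and 20.3%. The count of 8 became 4 by DESeq2, 1 without 100 nM replicate 2, 3 without 10 nM replicate 1, 5 without 0.3 nM replicate 2 or without 100 nM replicate 1, and 13 without 0 nM replicate 1. Without 0.3 nM replicate 1, 4 rose and 1, Scarna10, fell. Of all tested genes, these refits called 25% to 27.9%, both directions together. Scarna2 kept its call in each of the alternatives and each left-out library, with an adjusted p between 2.7e-05 and 0.00495 (0.000412 in the fit of all libraries), and a slope of 0.08 ± 0.02 (SE) log2 per step.

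Snord15a, another guide for 28S rRNA in the same host as Snord15b, stood at 541 and 515 CPM without dTAG13, and then at 433 and 521 (0.3 nM), 530.2 and 542 (1 nM), 489.9 and 704 (3 nM), 597 and 558 (10 nM) and 605 and 663 (100 nM). The 10 and 100 nM libraries were above the controls, and the 3 nM replicates lay on both sides of them. Its slope was 0.07 ± 0.02 log2 per step (SE, adjusted p = 0.0115, edgeR's quasi-likelihood test), that of Snord15b 0.06 ± 0.02 (adjusted p = 0.0311) and that of Snora81 0.07 ± 0.02 (adjusted p = 0.0120). Snord67, a guide for the U6 spliceosomal RNA, stood at 2.58 and 3.58 CPM without dTAG13, and then at 2.47 and 3.69 (0.3 nM), 3.70 and 4.33 (1 nM), 2.03 and 5.87 (3 nM), 6.28 and 3.28 (10 nM) and 5.30 and 6.87 (100 nM), on 10 to 42 counts a library. It had the steepest slope, 0.20 ± 0.07 (SE, adjusted p = 0.0243, edgeR), and both 100 nM libraries were above both controls. Snora41 stood at 79.7 and 67.2 CPM without dTAG13, and then at 57.7 and 63.9 (0.3 nM), 66.8 and 73.1 (1 nM), 63.3 and 109.6 (3 nM), 84.3 and 69.8 (10 nM) and 82.5 and 99.1 (100 nM). Its slope and that of Snora5c had adjusted p of 0.0464 and 0.0483 by edgeR. By DESeq2, Snora81, Snora41, Snord15a and Snord15b lost their trend calls. Leaving out 1 library at a time, Snora81 and Snord15a lost the call without 100 nM replicate 2, Snord15b without that library, 0.3 nM replicate 1 or 10 nM replicate 1, and Snord67 without any of these 3 or 0 nM replicate 1. Snord17 lost it without either library of 0.3 nM or 100 nM or without 10 nM replicate 1, Snora41 without any of 8 of the 12 libraries and Snora5c without any of 10.

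**Figure D4:**
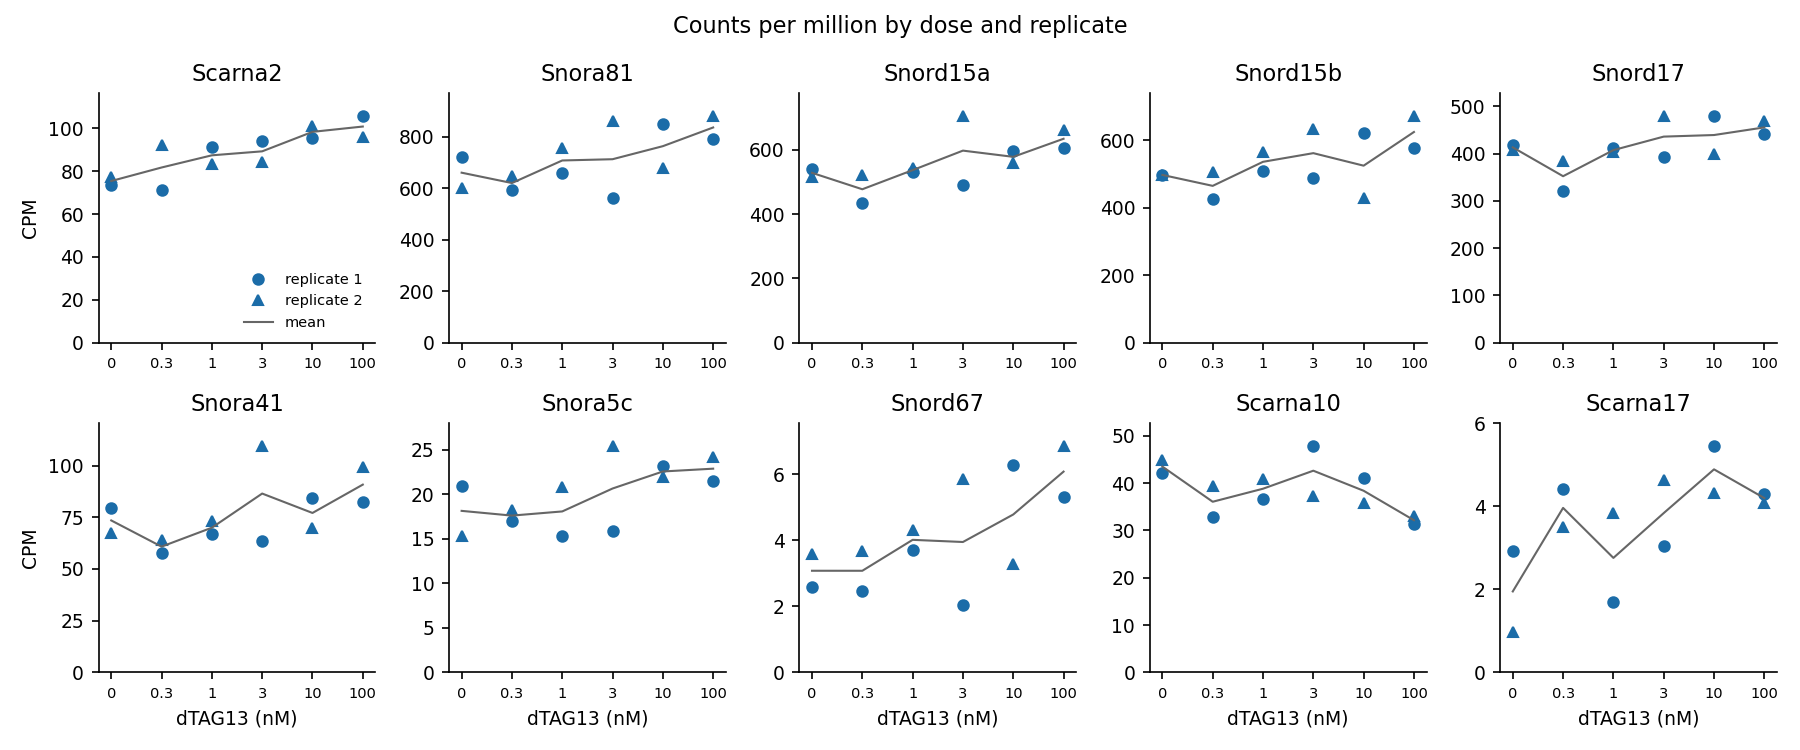
CPM of the 8 genes that rose with dose order and of Scarna10 and Scarna17 in each library, by dTAG13 dose (nM); circles are replicate 1, triangles replicate 2, and the line joins the dose means. Scarna2 is the one whose replicates stay closest together while its mean goes from 75.4 to 101 CPM.

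In the sample labels the 0.3 and 3 nM libraries carry a run of numbers apart from that of the other 4 groups, so 3 nM was also compared with 0.3 nM. At 1.5-fold 0 genes were called by edgeR's quasi-likelihood test, its likelihood ratio test and DESeq2, where the first called 0.747% of all tested genes higher and 1.2% lower. At an unadjusted p under 0.05, 10 of the 105 were higher and 0 lower, against 8.8% and 9.89%. Without the minimum fold 1 gene, Snord17, rose and 0 fell, against 2.43% and 2.88%. Snord17, a guide for 28S rRNA, stood at 419 and 408 CPM without dTAG13, and then at 321 and 384 (0.3 nM), 412 and 403 (1 nM), 393 and 479 (3 nM), 479 and 399.8 (10 nM) and 442 and 469 (100 nM). Both 0.3 nM values were below the controls. Its log2 fold change from 0.3 to 3 nM was 0.31 ± 0.09 (SE, adjusted p = 0.0333, edgeR), and its slope over the dose order 0.05 ± 0.02 per step (SE, adjusted p = 0.0377, edgeR). The former lost its call without 0.3 nM replicate 1 (adjusted p = 0.434), 3 nM replicate 2 (0.438), 100 nM replicate 1 (0.0570) or 100 nM replicate 2 (0.0565), all by edgeR, and by DESeq2 (0.265). The median of the 105 genes was 0.27, and -0.24 without 3 nM replicate 2. Leaving out 3 nM replicate 1 instead gave a median of 0.61. In the 8 libraries of the other 4 groups alone, the trend called 5 higher and 1 lower, the latter Scarna10. Of all genes in that fit, 24.4% were called, both directions together.

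The other named genes at the ends of the ranking at 100 nM did not pass the test. The 3 largest positive log2 fold changes among genes averaging 50 counts or more were those of Snord64 (0.54 ± 0.25, SE, adjusted p = 0.128, edgeR), Scarna3a (0.45 ± 0.30) and Snord11 (0.43 ± 0.29), and after Scarna10 the lowest were Snord82 (-0.18 ± 0.42) and Snord104 (-0.08 ± 0.31). Snord64 lies in the imprinted Snrpn region. It stood at 8.41 and 10.7 CPM without dTAG13, and then at 7.05 and 14.04 (0.3 nM), 9.59 and 6.82 (1 nM), 10.1 and 11.7 (3 nM), 11.1 and 8.64 (10 nM) and 15.7 and 12.3 (100 nM). Among the most abundant, Snord22 stood at 1034 and 870.1 CPM without dTAG13, and then at 886 and 916 (0.3 nM), 869.6 and 1008 (1 nM), 725 and 1279 (3 nM), 1061 and 897 (10 nM) and 938 and 1171 (100 nM). Its controls and 100 nM libraries overlapped, with a log2 fold change of 0.15 and a 95% interval of -0.15 to 0.45. Snora21 had 0.07 (-0.15 to 0.30), Snora23 had 0.27 ± 0.13 (SE, adjusted p = 0.135, edgeR) and Scarna13 0.02 (-0.22 to 0.25). Of the 10 RNAs listed for cleavage of the rRNA precursor, 5 were in the table, and 2 passed the count minimum. Of these Snord22 was not called, and Snord118 is not read as U8 here.

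Set beside its host gene, a snoRNA or scaRNA mostly stood higher per length. The ratio of mean RPKM to that of the host had a median of 2.40 over 97 pairs and ran from 0.0244 (Snord4a in Rpl23a) to 138 (Snord1b in 1810032O08Rik). In 67 pairs the small RNA was higher, in 22 by over 10 times. Snord99 stood at 3781 RPKM in Snhg12 at 49.3, and Scarna13 at 242 in Snhg10 at 2.03. Host RPKM is per exon length and the small RNA's per window length, and very short windows make a single read pair count for much.

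Changes of the small RNAs and of their hosts were set side by side. Of the 73 hosts, 3 were higher and 9 lower at 100 nM by edgeR's quasi-likelihood test at an adjusted p under 0.05, where 10.1% and 13.3% of all tested genes were. Among them 1, 2700038G22Rik, passed 1.5-fold, with a log2 fold change of 0.78 ± 0.25 (SE, adjusted p = 0.0225, edgeR). Its snoRNA, Snord93, had 0.40. With the dose order 4 hosts rose and 17 fell, where 13.6% and 15.7% of all tested genes did, and 14 of the 17 were ribosomal protein genes, of which 21 were hosts. Rps3, host of both Snord15 genes, had a slope of -0.03 ± 0.01 log2 per step (SE, adjusted p = 0.0582, edgeR), while that of Snord15a was 0.07. Eif4a2, the translation factor gene that holds Snora81, rose with 0.05 ± 0.01 per step (SE, adjusted p = 0.00401, edgeR). Nop58, host of Snord11 and Snord70 and itself a C/D core protein, rose with 0.06 ± 0.01 per step (SE, adjusted p = 0.000157, edgeR). Over the 97 pairs at 100 nM, Pearson's r between the change of the small RNA and of its host was 0.09. It was 0.29 over the 74 pairs with at least 50 counts. Over these 74 it was -0.04 (0.3 nM), 0.09 (1 nM), 0.24 (3 nM) and 0.42 (10 nM). For the slopes over the dose order it was 0.43 over the 74 pairs and 0.23 over the 97. These are given as a description, since pairs share hosts and libraries.

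**Figure D5:**
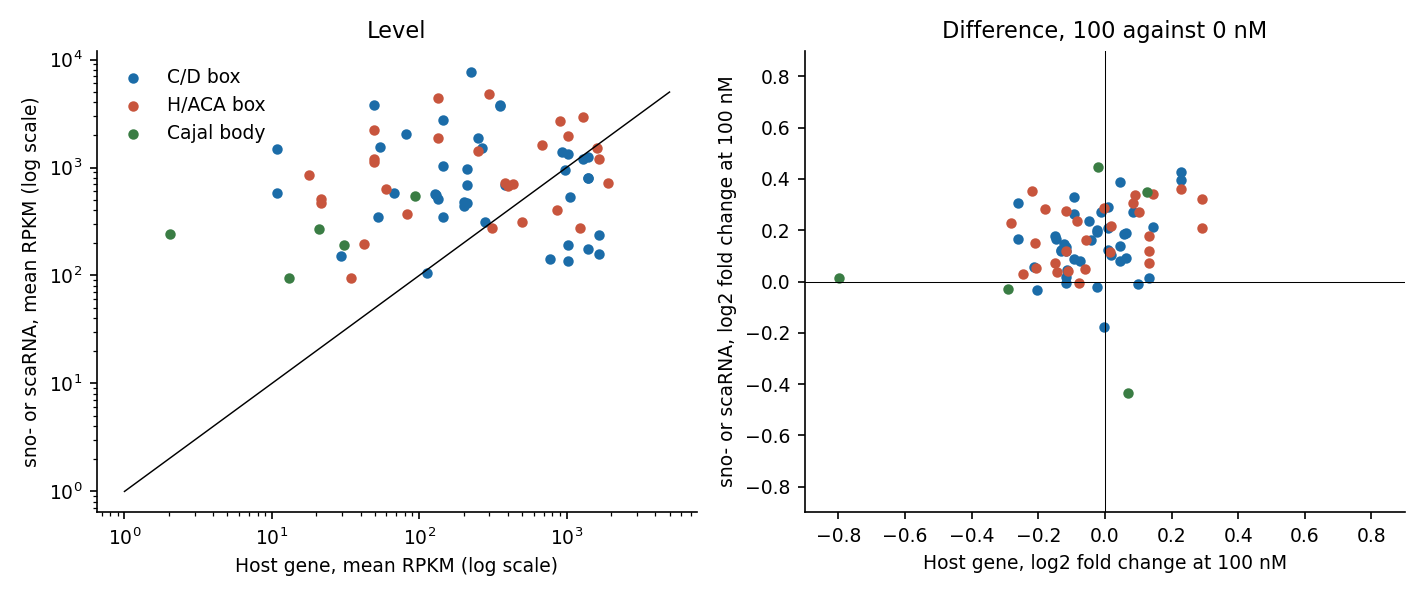
Small RNA against host gene for pairs with at least 50 counts on the small RNA. Left, mean RPKM on log axes with the line of equality. Right, log2 fold change at 100 nM against 0 nM. Most points lie above the line on the left, and on the right the changes of both lie close to 0, with r = 0.29 over these 74 pairs.

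Of the genes for proteins that bind or build these RNAs, 0 passed the 1.5-fold minimum at 100 nM. At an adjusted p under 0.05 by edgeR's quasi-likelihood test and without a minimum fold, 1 of 3 C/D core protein genes tested rose, Nop58, with a log2 fold change of 0.23 ± 0.06 (SE, adjusted p = 0.00403). Over all tested genes 10.1% were higher and 13.3% lower at this threshold. Of the 4 H/ACA core genes 0 were called at an adjusted p under 0.05. Of 9 assembly factors, Naf1 (0.27 ± 0.10) and Ruvbl1 (0.33 ± 0.06) rose. Of 7 genes of the Cajal body and nucleolus, Coil, which encodes the Cajal body scaffold coilin (0.45 ± 0.10), and Nolc1 (0.24 ± 0.06) rose and Tcof1, a nucleolar factor for rRNA synthesis (-0.22 ± 0.05), fell. Of 6 processing factors Parn, a poly(A) ribonuclease that trims snoRNA ends (0.54 ± 0.11), rose, and of 4 U3 partners Rrp9 (0.35 ± 0.09) did.

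A fixed list of noncoding host genes was read as well, which left out hosts with Rik symbols such as 2700038G22Rik. Of its 16 tested genes, 2 fell at over 1.5-fold at 100 nM, where 6.83% of all tested genes did. They were Rian, with a log2 fold change of -1.27 ± 0.16 (SE, adjusted p = 1.0e-06, edgeR's quasi-likelihood test), and Meg3, with -1.17 ± 0.20 (adjusted p = 7.9e-05). Neither was the host of any of the 105. Rian went from 29.7 and 30.4 CPM without dTAG13 to 11.6 and 13.2 with 100 nM. Both come from the same imprinted region, and Rian hosts the Snord113 and Snord114 clusters, of which no gene was among the 105. Of 3 other short structured RNAs tested, Terc, the telomerase RNA, which carries an H/ACA domain, rose by 0.43 ± 0.10 (log2, SE, adjusted p = 0.00282, edgeR), Rpph1 fell by 0.34 on the log2 scale (SE 0.10, adjusted p = 0.0190, edgeR) and Rmrp stood at 0.04 ± 0.06.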

How the data were processed

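The deposited counts are read pairs per gene symbol, made by the authors with featureCounts (pairs with both ends aligned, strand not used, pairs on several genes or places not counted) from reads trimmed with Trim Galore and aligned with HISAT2 to mm10. All 12 libraries were used, mapped to doses by their labels. The 105 genes and all gene lists were chosen with earlier results of these data known, and the genes named follow a rule on calls, mean count, fold change, trend p and replicate SD, to which Snora41, Snora5c and the genes outside the ranking were added after their values were seen. Counts were fitted with edgeR 4.0.16 in R 4.3.3 (quasi-likelihood, TMM factors, genes averaging 1 RPKM or more, 1 coefficient per dose, or a slope on the dose order), with Benjamini-Hochberg adjustment over 11378 genes. TMM assumes that most genes do not change. CPM values are counts scaled to the total of the tested genes times its TMM factor, and the SD between replicates used a prior count of 1. Depth was 4663484 to 6375582 counts per library. DESeq2 1.42.0, the likelihood ratio test, other scaling factors and filters, a block and left-out libraries were the alternatives. The fits were tested on simulated data in which each gene varied on its own. No shift shared by the short genes of a library was simulated, so that test does not cover such a shift. Sequences and gene ends came from GENCODE M21.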

Additional observations from a re-analysis of the deposited data

How the results depend on the processing

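The count of genes called at 10 nM was 1, and 2 by the likelihood ratio test, 0 by DESeq2, 3 without a filter on low values and 2 without a minimum fold. At 100 nM it was 0, and 2 by the likelihood ratio test, 1 in a fit of the 100 and 0 nM libraries alone and 4 without a minimum fold, and for 3 against 0.3 nM it was 0 and 1 without a minimum fold. The trend called 8, and 4 by DESeq2, 5 without a filter on low values and 13 without normalization factors. Of all genes in the fit, the trend called 29.3%, 27.9%, 20% and 27.3% in that order, both directions together. Leaving out 1 library at a time gave 0 to 3 calls at 3 nM, 0 to 3 at 10 nM, 0 to 7 at 100 nM, 0 to 11 for 3 against 0.3 nM and 1 to 13 in the trend, and medians of -0.52 to 0.28 at 0.3 nM, -0.26 to 0.55 at 1 nM, -0.42 to 0.58 at 3 nM, -0.41 to 0.54 at 10 nM, -0.17 to 0.65 at 100 nM and -0.24 to 0.61 for 3 against 0.3 nM. Such a fit leaves 1 library at that dose, which is assumed to vary like the others. The log2 fold change of Snord22 at 100 nM ran from -0.021 (without 100 nM replicate 2) to 0.30 (without 100 nM replicate 1). At 10 nM the count was 0 without 0 nM replicate 2 or 100 nM replicate 1. The cause of these differences was not tested.

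Libraries of different doses share a replicate number, and the labels do not say whether they were made as pairs. In 15 pairs of doses, the correlation of replicate 1 deviations ran from -0.11 to 0.09 over all tested genes. Over the 105 it ran from -0.75 to 0.82. These values do not settle whether the libraries were paired. With the replicate number as a block, the trend called 7 in place of 8, against 28.7% of all tested genes, 10 nM 1 and 100 nM 0. Among single genes the block moved Snora81 at 100 nM to an adjusted p of 0.0524, Snord15a there to 0.0447 and Snora5c in the trend to 0.0504 (all edgeR). Other scaling and filters left the medians of the 105 genes between 0.07 and 0.20 at 100 nM, and without the filter the median of the genes tested in both fits shifted to -0.08 there.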
